A study of Mus musculus with 6 samples.

Results

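The 65 genes described here encode the ligands and receptors of the 4 classical axon guidance systems, measured by RNA sequencing in the proximal mouse incisor. They are the protein-coding rows of the count table with the names of Eph receptors (11 genes), ephrins (8), semaphorins (20), plexins and neuropilins (11), Slits (3), Robos (3), netrins (4) and the netrin receptors Unc5a to Unc5d and Dcc (5). The table holds 25700 genes in all. Members were picked by name alone, but earlier results of these data were known when this gene group was chosen. The cKO group was 3 mice of the genotype Gli1-CreERT2;Runx2fl/fl, in which tamoxifen activates Cre recombinase in cells that express Gli1, so that both floxed copies of Runx2 can be lost from those cells and their descendants. The control group was 3 Runx2fl/fl mice, which carry the same floxed gene and no Cre. All 6 were 5-week-old C57BL/6 mice, and the labels describe 1 treatment for all of them, tamoxifen at 1.5 mg per 10 g body weight on each of 3 days at 1 month of age, with tissue taken 1 week after induction. Because controls lacked Cre, loss of Runx2 and the presence or activation of the Gli1-CreERT2 allele cannot be told apart. Mice are numbered within each group in accession order, and the numbers pair no mice.

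Axon guidance proteins steer growing nerve fibres, blood vessels and migrating cells by attraction or repulsion. Ephrins and Eph receptor tyrosine kinases are both bound to the cell surface and act where cells touch, while netrins, Slits and class 3 semaphorins are secreted and act at a distance through Dcc and Unc5, Robo, and neuropilin-plexin receptors. In the tooth they are best known for guiding sensory fibres of the trigeminal nerve: in the mouse, Sema3a made by dental mesenchyme keeps fibres out of the early tooth germ. The same proteins also act between mesenchymal, epithelial and endothelial cells. RNA of a whole tissue piece shows neither which cell made a transcript nor protein, and fewer cells of a type and less RNA per cell cannot be told apart.

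Libraries held 53525185 to 66694240 estimated counts, and the labels were checked on 2 genes. Runx2 measured 62.6, 54.0 and 49.0 CPM (counts scaled to library size) in cKO mice and 79.7, 77.7 and 81.2 CPM in controls, a log2 fold change of -0.53 (edgeR adjusted p = 0.0714). Gli1 measured 75.0, 77.9 and 70.6 CPM in cKO mice and 159, 89.7 and 207 CPM in controls, a log2 fold change of -1.03 (edgeR adjusted p = 0.131). Neither gene was at an edgeR adjusted p under 0.05. The labelled tissue is dental mesenchyme, and all 10 listed markers of it (among them Msx1, Pax9 and Lhx6) were tested, summing to 778 to 848 CPM in cKO mice and 644 to 728 CPM in controls. By mean log2 CPM relative to the control mean the groups overlapped, at -0.061, 0.16 and 0.12 in cKO mice and 0.072, -0.086 and 0.013 in controls. The 6 secretory ameloblast markers, genes of enamel-forming epithelium, summed to 22445 to 47035 CPM in cKO mice and 60583 to 80235 CPM in controls, so the samples also held epithelium. Control 2 stood apart from the other controls in 6 late enamel genes such as Klk4 and Amtn, which summed to 2634, 1451 and 1112 CPM in cKO 1 to 3, to 1798 CPM in control 2 and to 112 and 98.1 CPM in control 1 and control 3. Control 1 was the 1 male (4059 counts of the Y-linked Ddx3y, against 0 or 1 in the others) and had the most skeletal muscle RNA, its 10 markers summing to 373 CPM against at most 16.8 CPM in any other mouse. Among cKO mice, cKO 1 and cKO 2 had the most marrow and blood RNA. Neutrophil and marrow markers summed to 43.7 and 20.7 CPM in them, against at most 2.70 CPM in any other mouse. Erythroid markers summed to 84.2 and 115 CPM in cKO 1 and cKO 2, against at most 53.9 CPM in any other mouse. The part of marrow and blood content in the guidance gene values was not tested.

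All 65 guidance genes passed the filter on low counts, and 61 of them averaged at least 1 CPM. By edgeR, a count test whose p-values were adjusted over all 19264 genes tested, none of the 65 stood at an adjusted p under 0.05 (background 0.026%). At an unadjusted edgeR p under 0.05 stood 24 of the 65, or 36.9%, against 17.3% of all tested genes. Of these, 16 were higher in cKO mice (background 8.71%) and 8 were lower (background 8.55%). DESeq2, another count test, called 12 at an adjusted p under 0.05 (background 7.18%). It called Epha5, Sema3c, Sema7a, Sema6d, Efna3, Sema4g, Sema3e and Robo2 higher (8 genes, background 3.74%) and Ntn1, Epha3, Plxna4 and Plxnc1 lower (4 genes, background 3.44%). The CPM of the 3 cKO and 3 control mice did not overlap for 21 genes (background 23.1%), of which 15 were higher in cKO mice (background 11.1%) and 6 lower (background 12%). The median log2 fold change of the 65 was 0.028, against 4.85e-05 over all tested genes, a small shift beside the differences of single genes. Only Ntn1, Epha3 and Epha5 differed by more than 1 on the log2 scale, and 54 of 65 differed by less than 0.5.

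**Figure D1:**
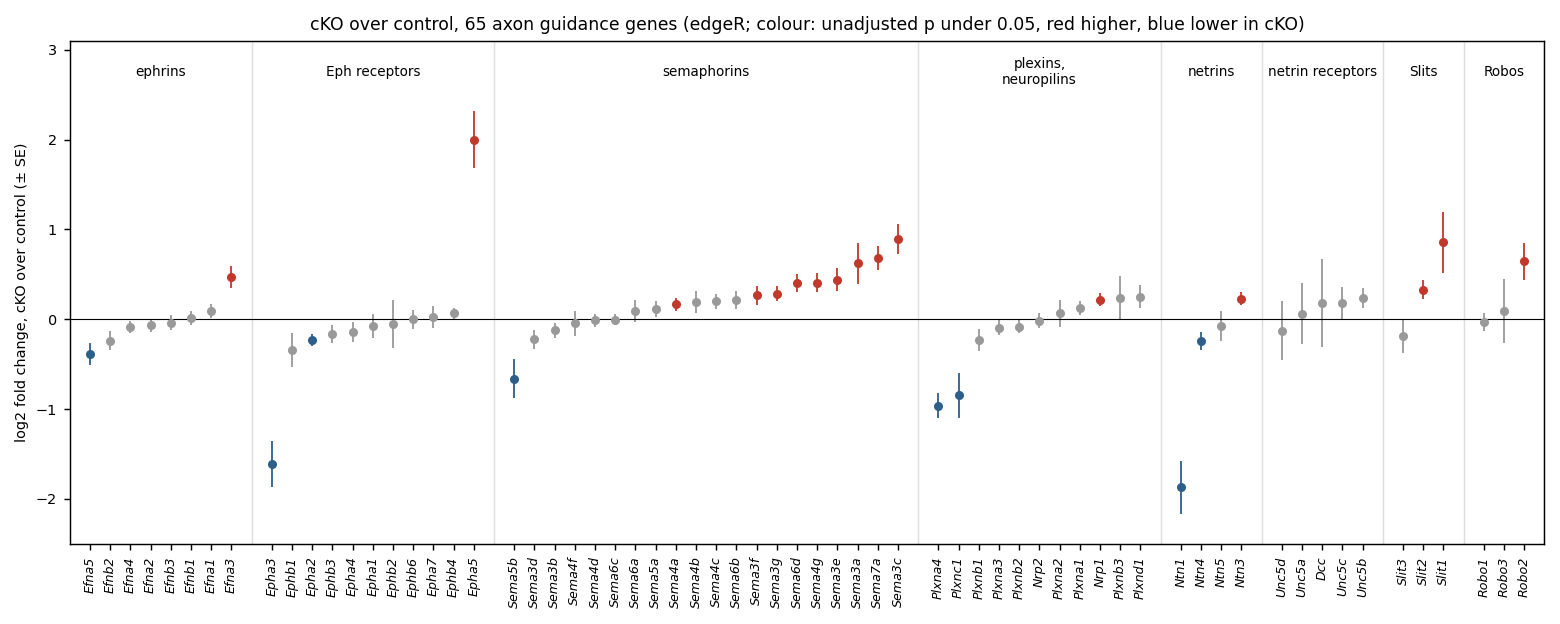
Log2 fold change (cKO over control, edgeR, ± SE) of each of the 65 genes, grouped by role, with genes at an unadjusted p under 0.05 in red where higher and blue where lower in cKO mice. Ntn1, Epha3, Plxna4 and Plxnc1 lie lowest, Epha5 lies highest, and 14 of the 20 semaphorins lie above 0.

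Levels between genes were compared per length, as CPM per kb of exonic sequence. The highest of the 65 was the netrin receptor Unc5b, at 74.7 ± 8.89 CPM per kb in cKO mice and 63.5 ± 5.91 in controls (SD, n = 3 each). The semaphorin receptor Plxnd1, known from endothelial cells, followed at 59.6 ± 2.99 and 50.02 ± 8.18 CPM per kb in cKO and control mice. Next came Plxnb2 (38.5 ± 2.32 in cKO and 40.8 ± 2.16 in control mice) and the ephrin Efnb1 (37.5 ± 2.86 and 37.1 ± 2.58), which differed from each other by less than their SD in cKO mice and by more than it in controls. Lowest by the mean over all 6 mice were Dcc, the classical netrin receptor of axons, at 0.0187 ± 0.0103 and 0.0164 ± 0.00647 CPM per kb in cKO and control mice, and Robo3, a receptor of commissural axons, at 0.0883 ± 0.0392 and 0.0833 ± 0.00604. Dcc had 13, 25 and 9 counts in cKO mice and 14, 18 and 7 counts in controls, so it was detected in every mouse but a difference of moderate size was not detectable at this depth.

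**Figure D2:**
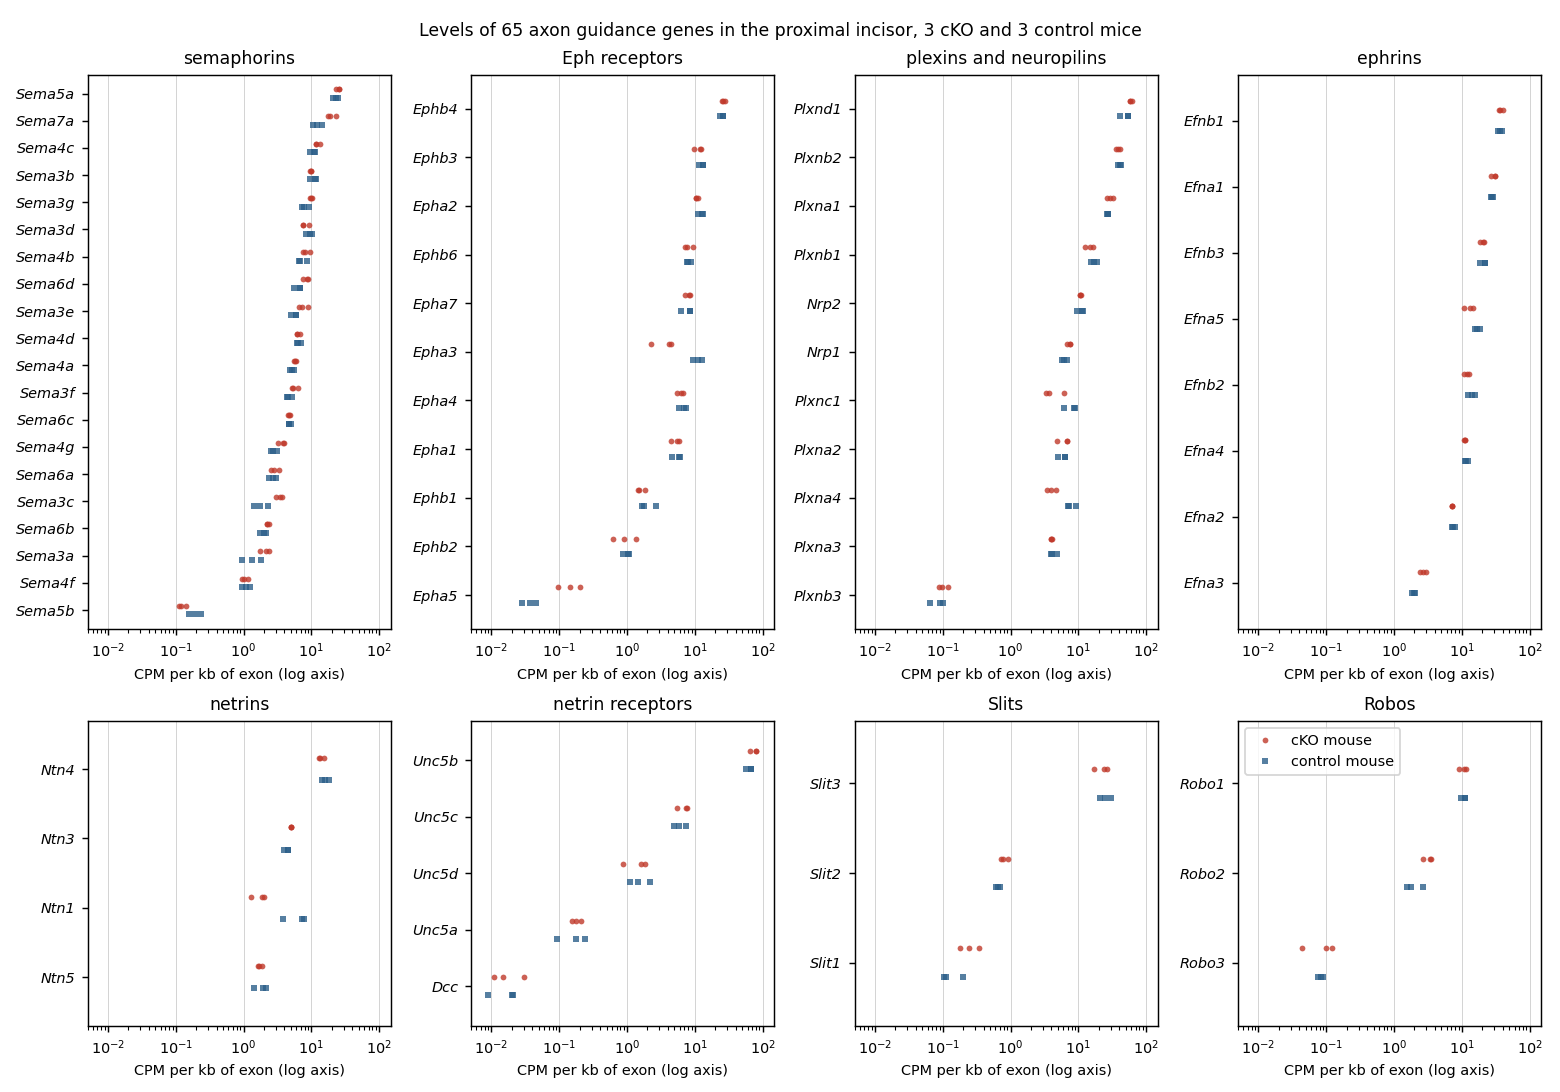
Level of each of the 65 genes in every mouse, in CPM per kb of exonic sequence on a log axis, with cKO mice as red circles above control mice as blue squares. Within each role the levels span from Unc5b, Plxnd1, Efnb1 and Sema5a at the top to Dcc, Robo3, Plxnb3, Epha5 and Sema5b at the bottom, and the groups do not overlap for 21 genes, Epha3, Ntn1, Plxna4 and Epha5 among them.

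Netrins, secreted relatives of laminin, held the largest decrease among the 65. Ntn1 (Netrin-1, chromosome 11, 68209364 to 68400823, build mm10) measured 12.8, 11.8 and 8.12 CPM in cKO mice, against 45.9, 24.3 and 49.5 CPM in controls. Every cKO mouse lay below every control, and control 2 lay between the cKO mice and the other controls. The mean was 10.9 ± 2.46 CPM in cKO mice and 39.9 ± 13.6 CPM in controls (SD, n = 3 each), a log2 fold change of -1.87 (SE 0.29, edgeR adjusted p = 0.0669). It passed the threshold with DESeq2 (adjusted p = 1.55e-09). Without control 2 it also passed by edgeR, at -2.13 (adjusted p = 0.0307), a fit that called 2 of the 65 genes, Ntn1 and Sema3c (background 0.366%). With late enamel genes as a covariate its log2 fold change was -1.18 (edgeR adjusted p = 0.788). Ntn1 made up 8.52%, 8.62% and 6.11% of the summed length-scaled level of the 4 netrins in cKO mice, against 25.8%, 14.95% and 24.5% in controls. Ntn1 stood in the same order over the 3 controls as Gli1, highest in control 3 and lowest in control 2. Epha3 stood in that order of controls too, and over the cKO mice Gli1 and Ntn1 differed in order. With the late enamel covariate Gli1 was at -0.22 (edgeR adjusted p = 0.938). A link between Gli1 and Ntn1 was not tested.

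The other netrins differed far less. Ntn4, a netrin of basement membranes and the highest of the 4 per length, measured 56.8, 49.5 and 48.7 CPM in cKO mice and 54.5, 60.4 and 68.4 CPM in controls. The groups overlapped, and the log2 fold change was -0.24 (SE 0.099, edgeR adjusted p = 0.272). Ntn3 measured 25.6, 25.8 and 25.4 CPM in cKO mice, all above the 22.8, 22.9 and 19.9 CPM of controls, a log2 fold change of 0.23 (SE 0.072, edgeR adjusted p = 0.182). Ntn5, which shares 23.4% of its exonic sequence with the antisense gene Sec1, measured 3.60, 3.76 and 4.20 CPM in cKO mice and 4.26, 3.202 and 4.70 CPM in controls, which overlapped (log2 fold change -0.073, edgeR adjusted p = 0.865).

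None of the 5 netrin receptors reached an unadjusted edgeR p under 0.05 (background 17.3%). Unc5 proteins mediate repulsion by netrins, and Unc5b is also a receptor of blood vessels. Unc5b measured 505, 404 and 494 CPM in cKO mice and 419, 418 and 354 CPM in controls, with overlap between the groups and a log2 fold change of 0.24 (SE 0.11, edgeR adjusted p = 0.338). It made up 87.1% to 92.5% of the summed length-scaled level of the 5 receptors in cKO mice and 88.0% to 90.1% in controls. Unc5c measured 105, 148 and 141 CPM in cKO mice and 111, 141 and 94.0 CPM in controls, and Unc5d 8.03, 14.8 and 17.0 CPM against 20.0, 13.4 and 10.1 CPM. In both genes the groups overlapped. Unc5a measured 0.731, 0.864 and 0.641 CPM in cKO mice and 0.391, 1.01 and 0.726 CPM in controls, with overlap as well.

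Eph receptors held both a strongly lower and a strongly higher gene. Epha3 (chromosome 16, 63543534 to 63864175), an EphA receptor of mesenchymal cells and motor axons, measured 38.9, 36.3 and 19.3 CPM in cKO mice, against 97.7, 80.7 and 111 CPM in controls. The highest cKO mouse lay well below the lowest control. The mean was 31.5 ± 10.6 CPM in cKO mice and 96.3 ± 14.97 CPM in controls (SD, n = 3 each), a log2 fold change of -1.61 (SE 0.26, edgeR adjusted p = 0.0669). DESeq2 called it lower (adjusted p = 1.57e-08), and with the late enamel covariate it was at -1.43 (edgeR adjusted p = 0.788). The share of Epha3 in the summed length-scaled level of the 6 EphA receptors was 12.6%, 11.8% and 7.41% in cKO mice, against 28.4%, 21.4% and 26.5% in controls. The 6 secretory ameloblast markers were lower in cKO mice too (6 of 6 below 0, sums as given above, not overlapping). Of 8 smooth muscle and pericyte markers 4 were below and 4 above 0, with overlapping sums. Their mean log2 CPM relative to the control mean was -0.65, -0.60 and -0.85 in cKO mice and 0.079, -0.16 and 0.081 in controls. Of 10 dental epithelium markers 8 were below and 2 above 0, also with overlapping sums. The part of these lists in the differences of Ntn1 and Epha3 was not tested.

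Epha5 (chromosome 5, 84054761 to 84417382), an EphA receptor best known from neurons, was the opposite case and a gene of low level. It had 164, 101 and 212 counts in cKO mice, against 33, 51 and 28 in controls, or 2.45, 1.62 and 3.39 CPM against 0.614, 0.767 and 0.473 CPM. The lowest cKO mouse lay above the highest control. The log2 fold change was 2.001 (SE 0.32, edgeR adjusted p = 0.0669), and DESeq2 called it higher (adjusted p = 2.62e-06). With the late enamel covariate it was at 1.70. Of 10 listed neuron markers 7 were tested, with 3 above and 4 below 0, and the list summed to 61.9, 46.5 and 42.0 CPM in cKO mice and 67.9, 75.6 and 92.1 CPM in controls. By mean log2 CPM relative to the control mean, the list was at 0.25, -0.20 and -0.31 in cKO mice and at -0.33, 0.11 and 0.22 in controls, which overlapped. The part of neuron content in the Epha5 values was not tested.

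The 9 other Eph receptors differed less. Epha2, an epithelial Eph receptor, measured 48.2, 51.6 and 48.5 CPM in cKO mice and 53.001, 59.5 and 61.6 CPM in controls, without overlap but with a log2 fold change of -0.23 (SE 0.069, edgeR adjusted p = 0.167). Ephb4, the receptor for Efnb2 on veins and the highest Eph receptor per length, measured 119, 122 and 128 CPM in cKO mice and 120, 121 and 111 CPM in controls, with overlap. Ephb1 measured 13.0, 10.2 and 10.7 CPM in cKO mice and 11.8, 12.6 and 18.5 CPM in controls, and Ephb3 81.4, 78.5 and 65.02 CPM against 76.6, 89.0 and 86.6 CPM, and both overlapped. The remaining Epha1, Epha4, Epha7, Ephb2 and Ephb6 also overlapped between groups, with log2 fold changes between -0.14 and 0.028 (edgeR adjusted p between 0.552 and 0.999). Of the 11 receptors 8 were below 0, with a median of -0.072.

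Ephrins, the ligands of Eph receptors, gave 1 of 8 genes in each direction at an unadjusted edgeR p under 0.05. The backgrounds were 8.71% higher and 8.55% lower. Efna5, a membrane-anchored ligand of Epha3 and Epha5, measured 59.4, 53.9 and 43.0 CPM in cKO mice, below the 62.5, 67.03 and 74.3 CPM of controls, a log2 fold change of -0.38 (SE 0.12, edgeR adjusted p = 0.193). Efna3 measured 6.63, 7.22 and 5.89 CPM in cKO mice, above the 4.45, 5.01 and 4.78 CPM of controls. Its log2 fold change was 0.47 (SE 0.12, edgeR adjusted p = 0.124, DESeq2 adjusted p = 0.0171), and 14.1% of its exonic sequence lies antisense to Gm15998. Since strand is not given in the sources used here, reads of the 2 genes cannot be told apart.

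Efnb2, a transmembrane ephrin of arteries, measured 87.9, 83.1 and 73.0 CPM in cKO mice and 84.6, 96.1 and 107 CPM in controls, with overlap (log2 fold change -0.24, edgeR adjusted p = 0.299). Efnb1, the highest ephrin per length and X-linked, measured 122, 126 and 141 CPM in cKO mice and 138, 127 and 120 CPM in controls. Efna1, a ligand of Epha2, measured 49.0, 56.4 and 57.4 CPM in cKO mice and 48.6, 53.2 and 50.9 CPM in controls. Efna4, with over 10% of its exonic sequence antisense to 4731419I09Rik, measured 17.9, 18.1 and 17.4 CPM in cKO mice and 18.1, 18.6 and 20.0 CPM in controls. The groups overlapped for all 3, and also for Efna2 and Efnb3, whose log2 fold changes were -0.069 and -0.039 (edgeR adjusted p = 0.656 and 0.855). The summed length-scaled level of all 8 ephrins was 129 to 135 CPM per kb in cKO mice and 136 to 139 CPM per kb in controls.

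**Figure D3:**
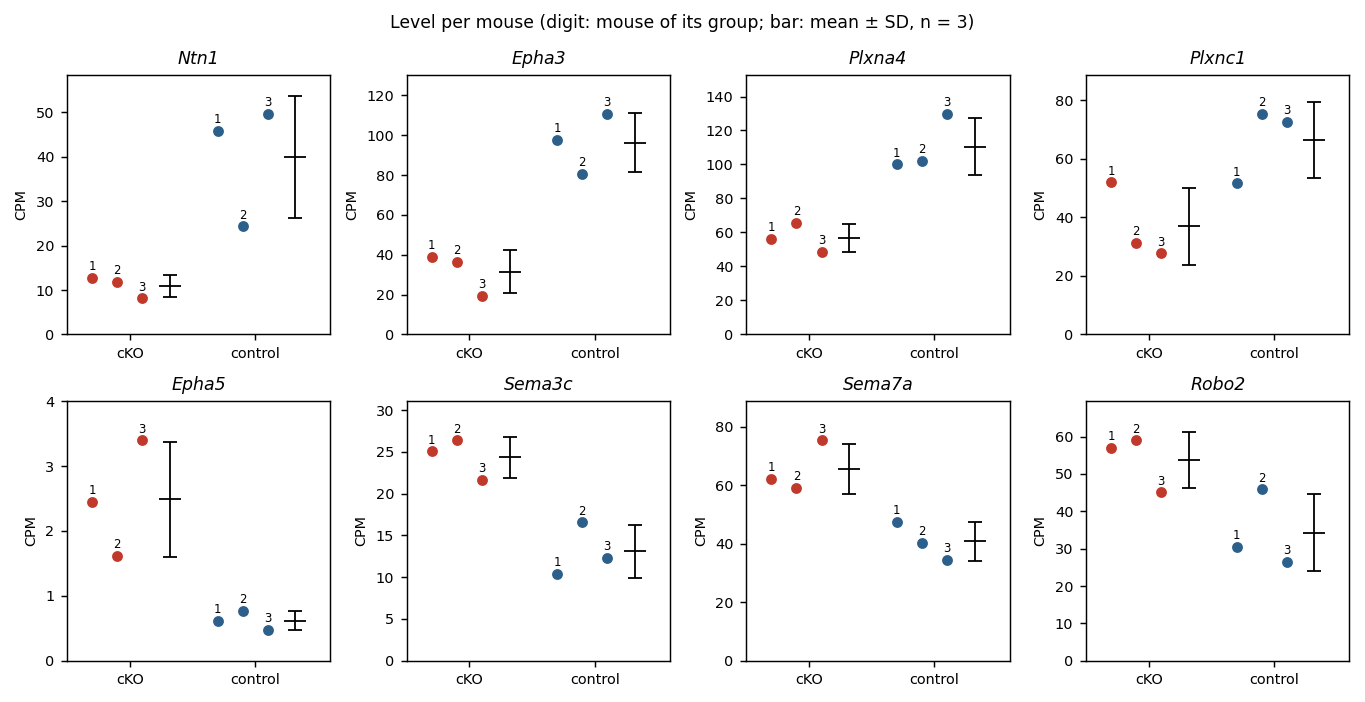
CPM of 8 genes in each mouse, cKO left of control, with the digit giving the mouse and the bar the mean ± SD of 3 mice. The groups do not overlap for Ntn1, Epha3, Plxna4, Epha5, Sema3c and Sema7a, while cKO 1 for Plxnc1 and control 2 for Robo2 reach into the other group.

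Of the 20 semaphorins, 14 had a log2 fold change above 0 (9636 of all 19264 tested genes), and the median was 0.20, or 0.098 with the late enamel covariate. At an unadjusted edgeR p under 0.05, 9 were higher (background 8.71%) and 1 lower (background 8.55%). DESeq2 called 5 higher (Sema3c, Sema7a, Sema6d, Sema4g and Sema3e, background 3.74%) and 0 lower (background 3.44%). Their summed length-scaled level was 149, 139 and 154 CPM per kb in cKO mice, above the 127, 131 and 122 CPM per kb of controls. The 7 class 3 semaphorins, which are secreted, had a median of 0.28, or 0.31 with the late enamel covariate. The 13 of classes 4 to 7, mostly membrane-bound, had a median of 0.17, or 0.069 with it. Macrophage markers were higher in cKO mice as well: 9 of 9 were above 0, and they summed to 821, 932 and 1016 CPM in cKO mice and 674, 661 and 509 CPM in controls. Their part in the semaphorin values was not tested.

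Sema3c (chromosome 5, 17574281 to 17730268), a secreted ligand of neuropilins known for guiding neural crest cells in the heart, measured 25.1, 26.4 and 21.6 CPM in cKO mice, against 10.4, 16.6 and 12.3 CPM in controls. All cKO mice lay above all controls. The log2 fold change was 0.89 (SE 0.17, edgeR adjusted p = 0.0833). It passed the threshold without control 2, at 1.10 (edgeR adjusted p = 0.0408), and DESeq2 called it higher (adjusted p = 8.17e-05). With the late enamel covariate it was at 0.53.

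Sema7a (chromosome 9, 57940112 to 57962865), a membrane-anchored semaphorin that binds integrins and Plxnc1, measured 62.2, 59.2 and 75.4 CPM in cKO mice, against 47.6, 40.3 and 34.5 CPM in controls. The groups did not overlap, and the log2 fold change was 0.68 (SE 0.14, edgeR adjusted p = 0.0878, DESeq2 adjusted p = 0.000331). It was at 0.71 with the late enamel covariate and between 0.57 and 0.81 with each mouse left out in turn. Markers of odontoblasts, the dentin-forming cells, moved with it: 6 of 7 were above 0, and they summed to 37305, 23722 and 44890 CPM in cKO mice and 20184, 15514 and 11451 CPM in controls. The 6 mice stood in the same order for this sum as for Sema7a. That order also held for osteoblast markers, which share Ibsp and Col1a1 with the odontoblast list. Of the 7 osteoblast markers 5 were above 0. The list summed to 27917, 20114 and 36839 CPM in cKO mice and 17642.5, 13899 and 10250 CPM in controls. The part of odontoblast or osteoblast content in the difference was not tested.

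Sema3e, the ligand of Plxnd1, measured 66.8, 62.0 and 84.0 CPM in cKO mice and 56.1, 54.4 and 46.1 CPM in controls, without overlap and in that same order of mice. Its log2 fold change was 0.44 (SE 0.13, edgeR adjusted p = 0.153, DESeq2 adjusted p = 0.0317). Sema6d, a transmembrane ligand of Plxna1, measured 94.6, 78.4 and 92.1 CPM in cKO mice and 70.8, 71.0 and 58.9 CPM in controls (0.40, SE 0.10, edgeR adjusted p = 0.123). Sema4g measured 34.7, 28.2 and 33.2 CPM in cKO mice and 21.9, 26.7 and 23.8 CPM in controls (0.41, SE 0.11, edgeR adjusted p = 0.129). For Sema6d and Sema4g all cKO mice lay above all controls, and DESeq2 called both higher (adjusted p = 0.0164 and 0.0208).

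Sema3a, the repellent of trigeminal fibres, was higher on average but overlapped. It measured 32.8, 30.1 and 23.9 CPM in cKO mice and 13.1, 25.0 and 18.3 CPM in controls, with control 2 above cKO 3. The log2 fold change of 0.62 (SE 0.23, edgeR adjusted p = 0.236) was 0.15 with the late enamel covariate. Sema3g, Sema3f and Sema4a were also above their controls in every cKO mouse, with log2 fold changes of 0.28, 0.27 and 0.17 (edgeR adjusted p between 0.167 and 0.285).

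Sema5a was the highest semaphorin per length, at 24.8 ± 1.29 CPM per kb in cKO mice and 22.9 ± 2.10 in controls (SD, n = 3 each). It measured 482, 436 and 471 CPM in cKO mice and 435, 462 and 385 CPM in controls, with overlap (log2 fold change 0.11, edgeR adjusted p = 0.558). Its relative Sema5b, at low level, was the 1 semaphorin lower at an unadjusted edgeR p under 0.05, among 6 below 0. It had 0.836, 0.784 and 1.01 CPM in cKO mice and 1.36, 1.13 and 1.67 CPM in controls (-0.66, SE 0.21, edgeR adjusted p = 0.192). Sema4c and Sema6b did not overlap either and had log2 fold changes of 0.20 and 0.21 (edgeR adjusted p = 0.302 and 0.345). The groups of the remaining Sema3b, Sema3d, Sema4b, Sema4d, Sema4f, Sema6a and Sema6c overlapped, with log2 fold changes between -0.22 and 0.19 (edgeR adjusted p between 0.312 and 0.974).

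Among plexins and neuropilins, the semaphorin receptors, the largest differences were toward lower levels in cKO mice. Plxna4 (chromosome 6, 32144268 to 32588192), the plexin through which sensory axons respond to Sema3a together with Nrp1, measured 56.3, 65.5 and 48.5 CPM in cKO mice, against 100.01, 102 and 130 CPM in controls. The highest cKO mouse was far below the lowest control. The log2 fold change was -0.96 (SE 0.14, edgeR adjusted p = 0.0622), the lowest p among the 65 genes. DESeq2 called it lower (adjusted p = 7.25e-08). It was at -0.83 with the late enamel covariate and between -1.07 and -0.83 with each mouse left out in turn. Its share of the summed length-scaled level of the 4 A-type plexins was 8.51%, 11.6% and 7.81% in cKO mice, against 16.5%, 16.2% and 19.3% in controls.

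Plxnc1 (chromosome 10, 94790866 to 94944835), the plexin that binds Sema7a, measured 52.0, 31.3 and 27.7 CPM in cKO mice and 51.7, 75.3 and 72.6 CPM in controls. Here cKO 1 reached the level of control 1, so the groups overlapped, and the log2 fold change was -0.85 (SE 0.25, edgeR adjusted p = 0.166, DESeq2 adjusted p = 0.0111). With the late enamel covariate it was at -1.18.

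The other plexins and neuropilins differed little. Plxna1, the highest A-type plexin, measured 290, 241 and 269 CPM in cKO mice and 242, 246 and 248 CPM in controls, with overlap, and 10.7% of its exonic sequence lies antisense to Gm26811. Nrp1, co-receptor of class 3 semaphorins and of vascular endothelial growth factor, measured 66.6, 72.8 and 73.0 CPM in cKO mice and 66.6, 59.7 and 56.2 CPM in controls (0.22 on the log2 scale, SE 0.076, edgeR adjusted p = 0.212), with cKO 1 and control 1 alike. Plxnd1 measured 419, 426 and 460 CPM in cKO mice and 399, 400 and 296 CPM in controls, without overlap but close together (0.25, SE 0.12, edgeR adjusted p = 0.350). Endothelial markers moved the same way: 10 of 10 were above 0, and they summed to 821, 789 and 841 CPM in cKO mice and 746, 672 and 670 CPM in controls. Their part in the values of Plxnd1, Nrp1 and Unc5b was not tested. Plxnb1, a receptor of Sema4d, measured 157, 145 and 119 CPM in cKO mice and 147, 164 and 183 CPM in controls, with overlap (-0.23, SE 0.12, edgeR adjusted p = 0.386). The groups of Plxnb2, Plxna2, Plxna3, Plxnb3 and Nrp2 overlapped too, with log2 fold changes between -0.095 and 0.24 (edgeR adjusted p between 0.609 and 0.941).

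Slits, large secreted ligands, and their Robo receptors gave no edgeR call (background 0.026%) and 1 by DESeq2 (background 7.18%). Robo2 (chromosome 16, 73891839 to 74411825) measured 56.9, 59.0 and 45.1 CPM in cKO mice, against 30.4, 45.9 and 26.5 CPM in controls. Control 2 lay above cKO 3, so the groups overlapped, and the log2 fold change was 0.65 (SE 0.21, edgeR adjusted p = 0.191, DESeq2 adjusted p = 0.0315). With the late enamel covariate it was at 0.16. Robo1, the highest Robo per length, measured 149, 180 and 190 CPM in cKO mice and 160, 183 and 187 CPM in controls (-0.030, edgeR adjusted p = 0.912), which overlapped. Robo3 measured 0.821, 0.304 and 0.689 CPM in cKO mice and 0.577, 0.526 and 0.608 CPM in controls, with the cKO mice on both sides of the controls.

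Slit2 measured 23.6, 20.0 and 18.6 CPM in cKO mice, above the 16.5, 15.4 and 17.7 CPM of controls (0.33 on the log2 scale, SE 0.10, edgeR adjusted p = 0.189). Slit1 had 136, 66 and 90 counts in cKO mice and 36, 79 and 37 counts in controls (0.86, SE 0.34, edgeR adjusted p = 0.259). Control 2 again reached into the cKO range, and with the late enamel covariate Slit1 was at 0.18. Slit3, the most abundant Slit, measured 103, 144 and 159 CPM in cKO mice and 185, 148 and 129 CPM in controls, which overlapped (-0.19, edgeR adjusted p = 0.658).

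The mean log2 CPM of the late enamel genes was 6.85, 5.98 and 5.84 in cKO mice and 2.16, 5.92 and 1.87 in control 1 to 3, so it largely followed genotype, and a fit with it as a covariate rests mainly on control 2 to tell them apart. With this covariate, 9 of the 65 genes stood at an unadjusted edgeR p under 0.05 (background 6.22%): Epha3, Ntn1, Plxna4 and Plxnc1 lower and Epha5, Sema3c, Sema3g, Sema6b and Sema7a higher in cKO mice. None of the 65 stood at an adjusted p under 0.05 in that fit (edgeR adjusted p = 0.788 for Epha3, Ntn1, Plxna4, Plxnc1, Epha5, Sema3c and Sema7a). Among the 24 genes at an unadjusted p under 0.05 without the covariate, Ntn1, Slit1, Robo2 and Sema3a moved furthest toward 0. All 24 kept their direction under each of the 13 alternatives run, which is in part fixed by their choice by p in the same mice. The cause of the late enamel difference was not tested.

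**Figure D4:**
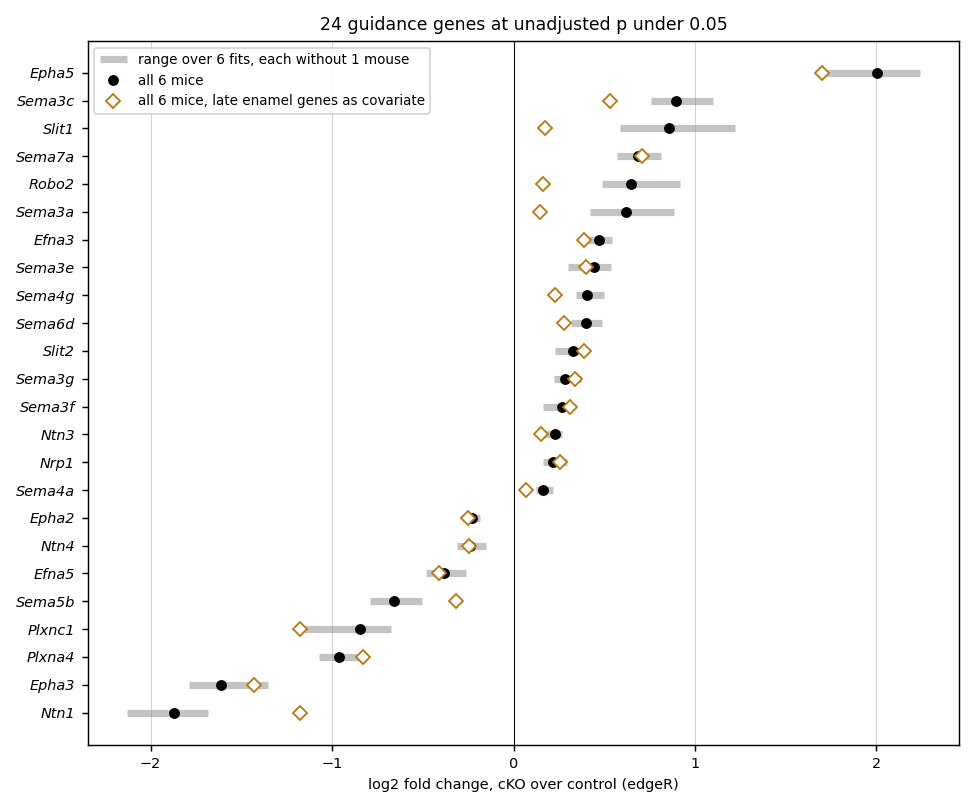
Log2 fold change (cKO over control, edgeR) of the 24 genes at an unadjusted p under 0.05, with the range over 6 fits that each leave out 1 mouse (grey bar) and the value with late enamel genes as a covariate (diamond). No bar or diamond crosses 0, and the diamonds of Ntn1, Robo2, Sema3a, Slit1 and Sema3c are among those that lie nearer to 0 than their bars.

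Ligands and receptors of a system can be set side by side. In the semaphorin system, Sema7a was higher (0.68) and its receptor Plxnc1 lower (-0.85), both called by DESeq2 and neither by edgeR, and the groups of Plxnc1 overlapped. Plxna4 was lower (-0.96), also called by DESeq2 and not by edgeR. Sema3a (0.62) and Nrp1 (0.22) overlapped between groups and passed neither tool's adjusted threshold. All these are log2 fold changes with the tests given above. In the ephrin system Epha3 (-1.61) was lower and Epha5 (2.001) higher, both called by DESeq2 and neither by edgeR. Their ligand Efna5 (-0.38) was below 0 and passed neither tool's adjusted threshold. In the netrin system Ntn1 was lower (-1.87), and Unc5b (0.24) and Unc5c (0.18) were above 0 without passing any threshold.

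To show the sequence next to start sites, the 250 bases before the RefSeq start (build GRCm38.p6) are printed for Epha3, Epha5, Sema7a and Sema3c, read 5′ to 3′ along the gene. These are 4 of the genes that DESeq2 called and whose groups did not overlap, and Ntn1 and Plxna4 are named only. The RefSeq start of Sema3c lies inside the gene span given above from the deposited table, so its window does too. RUNX proteins bind TGTGGT or TGCGGT, searched on both strands (ACCACA and ACCGCA), and GLI proteins bind GACCACCCA, also searched as TGGGTGGTC. Capitals mark a match to either.
Epha3 (chr16:63864176-63864425, - strand): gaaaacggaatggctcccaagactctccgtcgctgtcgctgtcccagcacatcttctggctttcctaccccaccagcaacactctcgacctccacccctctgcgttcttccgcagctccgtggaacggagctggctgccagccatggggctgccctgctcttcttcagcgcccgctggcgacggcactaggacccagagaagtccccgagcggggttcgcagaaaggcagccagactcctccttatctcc
Epha5 (chr5:84417383-84417632, - strand): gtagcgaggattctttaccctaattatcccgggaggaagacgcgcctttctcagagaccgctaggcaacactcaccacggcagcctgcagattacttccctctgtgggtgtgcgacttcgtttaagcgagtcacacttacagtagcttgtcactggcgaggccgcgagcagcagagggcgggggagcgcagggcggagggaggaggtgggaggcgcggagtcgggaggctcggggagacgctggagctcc
Sema7a (chr9:57939862-57940111, + strand): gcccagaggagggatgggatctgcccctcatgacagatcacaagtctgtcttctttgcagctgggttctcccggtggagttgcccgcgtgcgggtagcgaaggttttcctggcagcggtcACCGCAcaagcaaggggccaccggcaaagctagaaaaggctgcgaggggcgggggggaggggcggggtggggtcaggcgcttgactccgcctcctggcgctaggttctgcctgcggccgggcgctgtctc
Sema3c (chr5:17574566-17574815, + strand): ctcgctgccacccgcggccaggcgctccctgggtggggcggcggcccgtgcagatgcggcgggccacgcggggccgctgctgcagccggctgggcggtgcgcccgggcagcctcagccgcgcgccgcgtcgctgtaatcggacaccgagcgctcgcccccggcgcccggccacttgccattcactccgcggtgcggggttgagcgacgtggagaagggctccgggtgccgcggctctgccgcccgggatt
Of the 4 windows only that of Sema7a held a RUNX match, ACCGCA, which starts 130 bases before the start site, and none held a GLI match. Over the 71 windows of the 55 guidance genes in the RefSeq table, 13 held a RUNX match (18.3%), against 18.6% of all 32851 windows. A GLI match stood in 0 of the 71 and in 0.225% of all. A match is a description of letters, and the absence of one covers only this window.

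Other genes of the pathway were read from 3 lists. Of 33 other guidance cues and receptors, 32 were tested and 0 were called by edgeR (adjusted p under 0.05), with 3 higher and 3 lower at an unadjusted p under 0.05 and a median log2 fold change of 0.040. Those counts are about the backgrounds of 8.71% and 8.55%. The lowest p was that of Draxin, a secreted antagonist that binds netrins and Dcc, at 5.16, 3.66 and 3.73 CPM in cKO mice and 0.875, 1.76 and 1.15 CPM in controls. All cKO mice lay above all controls (1.72, SE 0.28, edgeR adjusted p = 0.0672), and Draxin was called by DESeq2. Leaving out control 2 gave 2.04 (edgeR adjusted p = 0.0475). Kdr, the main receptor of vascular endothelial growth factor and a marker in the endothelial list, measured 120, 108 and 119 CPM in cKO mice and 94.5, 93.8 and 84.3 CPM in controls (0.35, SE 0.069, edgeR adjusted p = 0.0878). DESeq2 called Kdr higher (adjusted p = 0.00323) and Vangl2 lower (log2 fold change -0.33, adjusted p = 0.0279). In this list DESeq2 called 2 higher (background 3.74%) and 1 lower (background 3.44%).

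Of 59 cytoplasmic transducers of guidance signals, 0 were called by edgeR, with 6 higher and 6 lower at an unadjusted p under 0.05 and a median of 0.0086. Those counts are near the backgrounds of 8.71% and 8.55%. Srgap1, a Robo-binding GTPase-activating protein, measured 34.4, 47.1 and 31.8 CPM in cKO mice and 60.4, 55.7 and 66.5 CPM in controls (-0.69, SE 0.15, edgeR adjusted p = 0.0969). The actin-binding protein Ablim3 measured 14.1, 11.1 and 15.1 CPM in cKO mice and 8.79, 8.04 and 6.55 CPM in controls (0.78, SE 0.15, edgeR adjusted p = 0.0878). Neither pair of groups overlapped, and DESeq2 called both. Among the 59 transducers DESeq2 called 5 higher (background 3.74%) and 2 lower (background 3.44%).

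Of 16 neurotrophic factors and receptors, which feed and attract the nerve fibres that guidance cues steer, 15 were tested and 0 called by edgeR, with 3 higher (background 8.71%) and 1 lower (background 8.55%) at an unadjusted p under 0.05. Gfra1, the receptor of glial-derived neurotrophic factor, measured 6.13, 7.86 and 5.51 CPM in cKO mice, below the 15.5, 9.79 and 16.1 CPM of controls (-1.09, SE 0.22, edgeR adjusted p = 0.0878), and DESeq2 called it lower (adjusted p = 0.000101). Gfra2, the receptor of neurturin, measured 39.4, 43.9 and 47.2 CPM in cKO mice, above the 36.7, 34.3 and 24.6 CPM of controls (0.45, SE 0.15, edgeR adjusted p = 0.202). Markers of Schwann cells and nerve summed to 86.1 to 92.2 CPM in cKO mice and 88.3 to 120 CPM in controls, with overlap.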

How the data were processed

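RNA of the proximal incisor of 3 cKO and 3 control mice was sequenced in single-end reads of 75 cycles, per the labels' protocols. Per the submitters' processing notes, tools were STAR 2.6.1d and Partek with build mm10. Counting settings, annotation and strand: not given in the sources used here. Estimated counts as deposited span 25700 genes, and 45.6% to 48.0% of values per library were whole (tolerance 1e-09). The second deposited table holds a normalized signal, equal to the estimated count plus 1 times 1 factor per library for 100% of values within 0.1%, and was used only for that check.

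Counts were rounded, filtered with filterByExpr (minimum count 10, minimum total 15), scaled by TMM and tested on all 6 libraries with edgeR 4.0.16's quasi-likelihood test in R 4.3.3, two-sided and without covariates, with Benjamini-Hochberg adjustment over all 19264 genes and a threshold of 0.05. Standard errors were derived from each log2 fold change and the F value of its test. DESeq2 1.42.0, other scalings and filters, late enamel and sex covariates and leaving out each mouse were the 13 alternatives. Since control 1 was the 1 male, the sex covariate marks that mouse alone. It gives nearly the fit without control 1, so these are not separate checks. At this depth 1 count is worth 0.0149 to 0.0186 CPM. Chi-square per degree of freedom within groups ran from 50.8 to 80.8, far above sampling noise for every pair within a group. Exonic lengths and overlaps come from GENCODE M21; 16 of the 65 genes share exonic bases with another gene, 4 of them over 10%. The scripts were tested on simulated data. The genes, lists and alternatives were chosen with earlier results of these data known. For each role, values per mouse are given for up to 5 genes of lowest p and the gene of highest length-scaled level; from each other list, the 2 of lowest p. Values of Sema3a, Sema5b and Plxna1 were added after they were seen.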

Additional observations from a re-analysis of the deposited data

How the results depend on the processing

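The 24 guidance genes at an unadjusted edgeR p under 0.05 kept their direction in all 13 alternatives, while 23 of the 41 others changed sign in at least 1. The 24 and the 41 were split by p in the same mice, so this contrast is in part built in and is no separate evidence. The count of called guidance genes, 0 in the edgeR fit reported, was 12 with DESeq2, and by edgeR 0 to 2 with a mouse left out, 2 without control 2. In the 3 other pathway lists together it was 11 with DESeq2 (background 7.18%) and 0 to 1 with a mouse left out, where Draxin passed without control 2. Over all genes the count of 5 was 1304 with DESeq2, 0 with the late enamel covariate, 0 with the sex covariate and 0 to 72 with a mouse left out, 72 without control 2. In the edgeR fits that called none, 1198 to 3278 genes stood at an unadjusted p under 0.05. The counts of 24 guidance genes at an unadjusted p under 0.05 and of 21 without overlap were added after the values were seen. The first was 9 with the late enamel covariate (background 6.22%) and 17 to 24 with a mouse left out. In the fits with a mouse left out, 2359 to 3278 of all 19620 to 19736 tested genes stood at an unadjusted p under 0.05. The second was 22 to 34 with a mouse left out, 34 without control 1, the 1 male. Fewer mice leave less room for overlap, and the share over all genes was not computed for those fits, so nothing is read from this range. The median log2 fold change of the guidance genes tested stayed between 0.0037 and 0.060. The causes of these changes were not tested. The labels' protocol speaks of pairs of samples without saying which mice form one. No paired analysis was possible because the mouse numbers in the labels are shared by no pair of mice. With 3 mice a group, fewer counts limit Dcc, Robo3, Unc5a and Plxnb3, each under 1 CPM on average.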
